A study of Mus musculus with 53 samples.

Results

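The 26 wild-type livers of a long-term diet experiment and of an acute toxin experiment, out of 53 liver libraries in the series, were compared to find the genes that a chronic and an acute challenge moved in opposite directions, or that only 1 of them moved. All were whole livers of male C57BL/6J mice. The first challenge was Western Diet for 32 weeks (7 livers), set against the Low Fat Control Diet for the same time (9 livers) in mice that were 9 weeks old at the start. The other was an intraperitoneal injection of carbon tetrachloride (CCl4) mixed with olive oil in equal volumes, at 2 µl per g of body weight (4 livers), set against olive oil alone (6 livers) in mice 16 weeks old, with livers taken 3 days later. Livers were chosen by the wild-type genotype and the treatment in the labels, and genes were those present in the count tables of both experiments. Bmp8b itself, a secreted bone morphogenetic protein, was barely expressed, with 0.506, 1.22 and 1.76 CPM (counts relative to library size, the unit of all levels here) as the lowest, median and highest level in Western diet livers, 0, 0.152 and 0.305 CPM in low-fat livers, 0, 0, 0.53 and 1.34 CPM in the CCl4 livers and 0 CPM in every olive oil liver.

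Western diets rich in fat, sugar and cholesterol fill hepatocytes with lipid droplets and lead over months to inflammation and scarring. CCl4 is turned into a reactive radical by cytochrome P450 enzymes, chiefly CYP2E1, in the hepatocytes around the central vein, and these cells die within days while the surviving hepatocytes divide to replace them. A liver gene can therefore be read against both a slow metabolic load and a regenerating wound.

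A response is the log2 fold change of a challenged group over its own control group, and the difference is the diet response minus the CCl4 response. All were estimated with edgeR's quasi-likelihood test in a single fit of the 4 group means, and called genes are those whose p, adjusted by the Benjamini-Hochberg method, was under 0.05 among the 13253 that passed the filter on low counts. Library totals were 9708540 to 14630233 counts on Western diet, 9878476 to 14275637 on the low-fat diet, 3699391 to 6364414 after CCl4 and 4016674 to 5853408 after olive oil, so the CCl4 responses rest on fewer livers and shallower libraries. The control mice of the 2 experiments differed in age, diet, injection and count table, and what these do to a control level cannot be told apart. In bulk liver, fewer cells of a type and less RNA per cell cannot be told apart either. Western diet livers 32 and 36 lay between the diets on the first principal component (6.61 and 12 against 39.8 to 63.6 in the other 5 Western diet livers and -44.2 to -14.5 in the low-fat livers). CCl4 liver 34 lay beyond the other 3 CCl4 livers on that of its experiment (116 against 34.2 to 62.1, with olive oil livers at -61.7 to -26). It was also the only CCl4 liver with the library index D505. Values without it are given for part of the genes, and a gene without such a value may depend on it too. Olive oil livers 24, 26 and 27 carried index D504 and livers 28, 29 and 30 index D505, and in 15 of the 45 gene lists used here the mean log2 level of the list did not overlap between these 2 sets. Those lists included sinusoidal endothelial, stellate cell, pericentral, MHC class II, lipid droplet and amino acid catabolism genes, whose CCl4 responses are set against all 6 olive oil livers together; the part of this split in the results was not tested.

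The diet response and the CCl4 response differed for 2167 of 13253 genes (16.4%), of which 1096 (8.27%) had the higher log2 response on Western diet and 1071 (8.08%) the higher log2 response after CCl4. In the same fit 2964 genes (22.4%) responded to Western diet, 1894 up (14.3%) and 1070 down (8.07%), and 4885 (36.9%) to CCl4, 2565 up (19.4%) and 2320 down (17.5%). Of the 1584 genes that responded to both, 1478 (93.3%) moved the same way. Only 106 genes (0.8%) moved in opposite directions with a called difference: 60 (0.453%) rose on Western diet and fell after CCl4, and 46 (0.347%) fell on Western diet and rose after CCl4. Changes in 1 challenge alone, with a called difference, were found for 240 genes on diet (138 up, 1.04%, and 102 down, 0.77%) and for 1516 after CCl4 (764 up, 5.76%, and 752 down, 5.67%). The other challenge's 95% confidence interval lay within a 2-fold change either way for 159 of the 240 (71 up, 0.536%, and 88 down, 0.664%) and for 1347 of the 1516 (667 up, 5.03%, and 680 down, 5.13%); for the remainder the interval reached past 2-fold. A further 215 genes moved the same way by different amounts: 3 rose more on diet (0.0226%), 107 rose more after CCl4 (0.807%), 0 fell more on diet and 105 fell more after CCl4 (0.792%). Without a called difference, 829 genes rose (6.26%) and 434 fell (3.27%) in both challenges.

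The counts changed with the fit, and the cause of these changes was not tested. In the fit above 1 estimate of spread per gene served both experiments. When each experiment was fitted alone, 4975 genes responded to diet and 2293 to CCl4, the reverse order, and 1895 differed between challenges. With limma voom and a weight per group, an alternative chosen after seeing the data, 4944 responded to diet, 1900 to CCl4 and 628 differed. Which challenge moved more genes therefore depends on the fit. Limma voom with a quality weight per library, a further alternative named beside results, gave 5621 diet and 3683 CCl4 responses. The other such alternative is the edgeR fit with the i5 library index as a covariate. Only CCl4 livers 4, 5 and 7 carried index D503, and no CCl4 liver carried D504. The CCl4 response of the index fit therefore set CCl4 liver 34 alone against olive oil livers 28, 29 and 30. For a call lost in that fit, index and liver 34 cannot be told apart. Of the 2167 called differences, 1286 (59.3%) stayed called in every one of 26 fits that each left out 1 liver, and the genes described in what follows were picked in part for staying called.

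**Figure D1:**
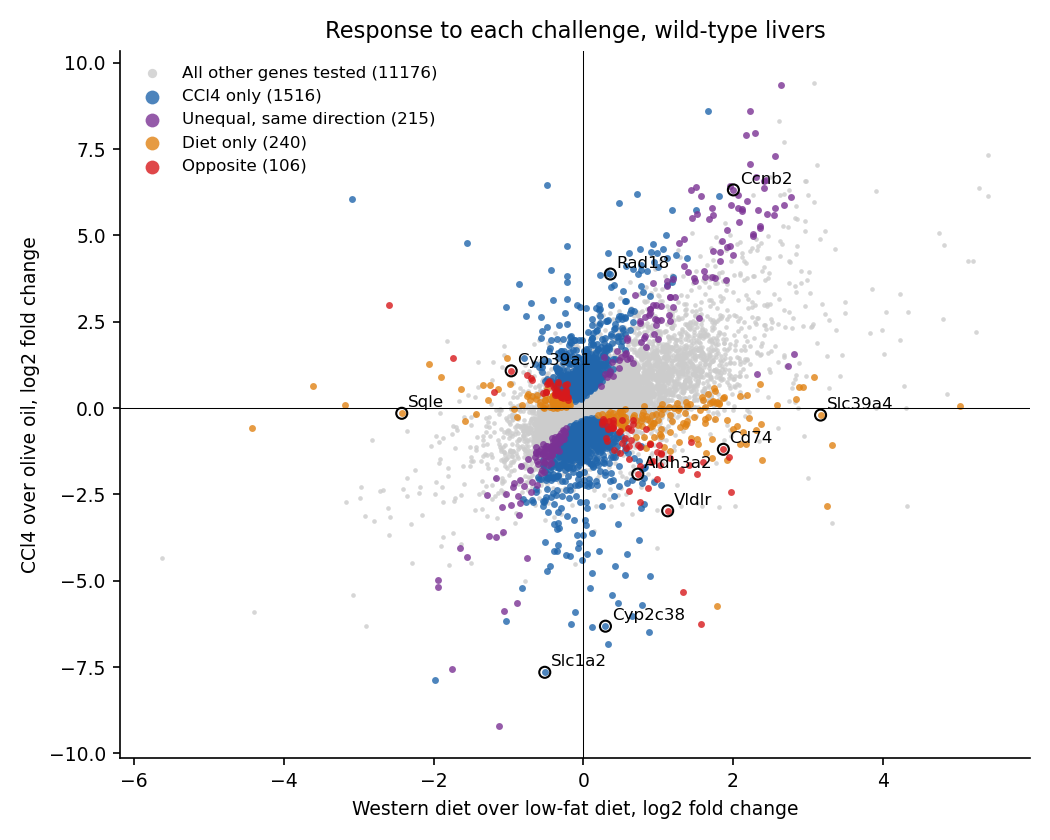
Log2 fold change of each of the 13253 genes on Western diet over the low-fat diet (horizontal) and after CCl4 over olive oil (vertical), coloured by class, with named genes ringed. The 106 red genes lie to the upper left and lower right of the crossing of the axis lines, the 240 orange genes near the horizontal line and the 1516 blue genes near the vertical one.

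Genes that rose on Western diet and fell after CCl4 included enzymes and carriers of lipid and amino acid metabolism. The naming rule for this class required that the groups of livers overlap in neither experiment. The absence of overlap in its 8 genes is therefore no finding. The same holds for genes named later by the size of their difference, in each challenge said to change them. Over all genes tested, the groups did not overlap for 7% in the diet experiment and 15.6% in the CCl4 experiment. Aldh3a2 (chr11:61223417-61267464, GRCm38) encodes the fatty aldehyde dehydrogenase that oxidises long-chain aldehydes. Its lowest, median and highest level was 1085, 1218 and 1312 CPM in Western diet livers, against 639.5, 705.08 and 976 CPM in low-fat livers. The 4 CCl4 livers had 22.7, 63.1, 74.1 and 92.9 CPM, against 168, 232 and 318 CPM as the lowest, median and highest in olive oil livers. Aldh3a2 had a log2 response of 0.73 ± 0.18 (SE) on diet and -1.91 ± 0.25 after CCl4, a difference of 2.64 ± 0.30 (adjusted p = 2.6e-06). Its level in low-fat livers was above that in olive oil livers, so the starting points differed too.

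Pyroxd2, a mitochondrial oxidoreductase-like protein, and Agxt2, a mitochondrial aminotransferase that also breaks down dimethylarginines, followed the same pattern. Pyroxd2 had 55.7, 64.1 and 84.6 CPM in Western diet livers, against 28.6, 34.8 and 49.3 CPM in low-fat livers. It had 6.71, 20.4, 22.964 and 23.9 CPM in the CCl4 livers, against 29.6, 38.7 and 46.6 CPM in olive oil livers. The difference of its log2 responses was 1.94 ± 0.28 (adjusted p = 7.2e-05), from 0.89 on diet and -1.05 after CCl4. Agxt2 had 224, 242 and 274 CPM in Western diet livers, against 134, 164 and 209 CPM in low-fat livers. It had 32.1, 104, 109 and 109.8 CPM in the CCl4 livers, against 182, 188 and 207 CPM in olive oil livers, and its lowest CCl4 value, like that of Pyroxd2, came from liver 34. Without liver 34 the difference for Agxt2 was 1.43 (adjusted p = 1.5e-07) and for Pyroxd2 1.66 (adjusted p = 1.3e-05), against 1.72 and 1.94 with it.

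Pparg, the nuclear receptor that drives lipid storage genes, stood at 26.5, 29.3 and 39.6 CPM in Western diet livers, against 8.00, 13.9 and 20.0 CPM in low-fat livers. In the CCl4 livers it stood at 0.689, 1.77, 3.07 and 3.70 CPM, against 4.81, 5.57 and 9.42 CPM in olive oil livers. The difference of its log2 responses was 2.60 ± 0.41 (adjusted p = 0.00013). The Golgi trafficking gene Dop1b moved less, with a log2 response of 0.55 ± 0.11 on diet and -0.87 ± 0.15 after CCl4 (difference adjusted p = 2.2e-05). A pair of lysosomal genes moved by under 2-fold each way. These were Cln3, whose loss causes Batten disease, with 0.40 on diet and -0.56 after CCl4 (difference adjusted p = 0.00031), and the alpha-mannosidase Man2b1, with 0.39 and -0.42 for the same 2 responses (difference adjusted p = 5.2e-05). The orphan receptor Gpr12 was low throughout, at 1.95, 2.58 and 3.18 CPM on Western diet and 0, 0, 0.401 and 0.53 CPM after CCl4, and its difference was 3.04 ± 0.62 (adjusted p = 0.0015). With a weight per group the difference was not called for Pparg (2.76, adjusted p = 0.12) or Gpr12 (3.15, adjusted p = 0.059). In separate fits the CCl4 fall of Cln3 (adjusted p = 0.073) and Gpr12 (adjusted p = 0.09) was not called.

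Abcg5 and Abcg8 encode the partners of the transporter that secretes cholesterol and plant sterols into bile. The genes stand head to head, with starts 110 bases apart in the RefSeq annotation, so 209 bases of their promoter windows (250 bases before to 50 after each start) are the same DNA. The window of Abcg8, at chr17:84682871-84683170 on the plus strand of GRCm38.p6, is shown because this pair moved together; it was searched for no motif.
Abcg8: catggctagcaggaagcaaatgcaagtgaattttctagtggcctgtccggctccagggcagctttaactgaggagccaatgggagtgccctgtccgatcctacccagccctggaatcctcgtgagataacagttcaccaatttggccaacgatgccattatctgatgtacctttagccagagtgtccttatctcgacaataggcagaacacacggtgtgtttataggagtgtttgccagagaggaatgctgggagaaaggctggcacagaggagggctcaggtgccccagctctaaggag
Abcg5 was at 163, 253 and 292 CPM in Western diet livers, against 119, 168 and 187 CPM in low-fat livers. It was at 42.2, 42.8, 43.8 and 62.2 CPM in the CCl4 livers, against 64.3, 141 and 164 CPM in olive oil livers. Abcg8 was at 156, 251 and 291 CPM in Western diet livers, against 137, 178 and 193 CPM in low-fat livers. After CCl4 it was at 44.4, 53.5, 61.7 and 73.2 CPM, against 79.7, 151 and 171 CPM in olive oil livers. The diet groups overlapped for both genes and the CCl4 groups did not. The log2 responses were 0.62 ± 0.15 on diet and -1.46 ± 0.21 after CCl4 for Abcg5, with a difference of 2.08 ± 0.26 (adjusted p = 1.1e-05). For Abcg8 they were 0.49 ± 0.15 on diet and -1.29 ± 0.20 after CCl4, with a difference of 1.78 ± 0.25 (adjusted p = 3.6e-05). Without Western diet livers 32 and 36 together the diet rise of Abcg8 was not called (0.35, adjusted p = 0.1). Among all 24 bile acid synthesis and transport genes tested, 7 had a higher and 0 a lower diet response, 3 of them in opposite directions; the median log2 response was -0.26 on diet and -1.20 after CCl4, beside -0.016 and 0.026 over all genes tested. Slc27a5, which activates bile acids before conjugation, fell in both challenges and further after CCl4, with log2 responses of -0.47 ± 0.11 on diet and -1.39 ± 0.15 after CCl4 (difference adjusted p = 0.0011).

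**Figure D2:**
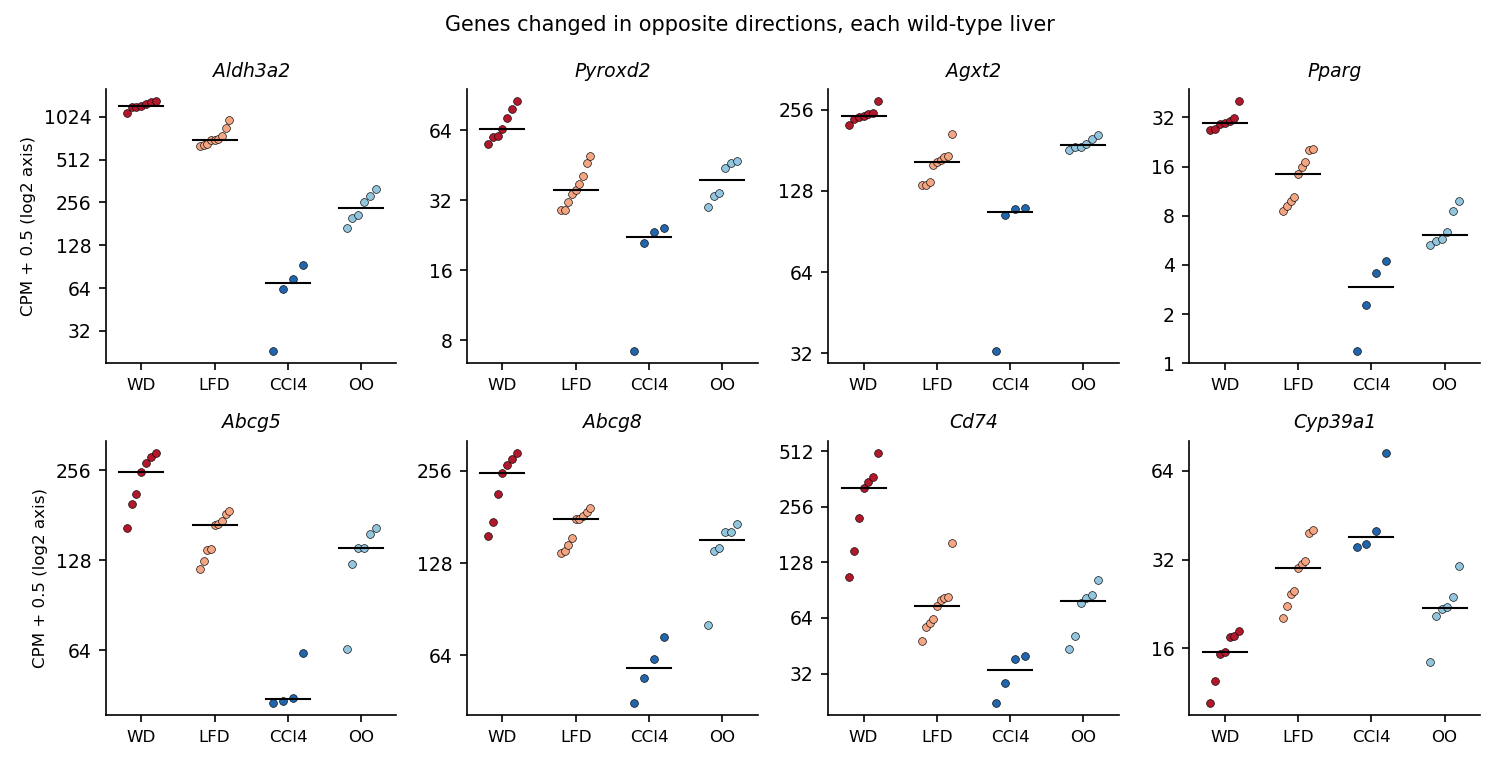
CPM plus 0.5 on a log2 axis for 8 genes in each liver of the Western diet (WD), low-fat diet (LFD), CCl4 and olive oil (OO) groups, with bars at group medians. In the first 7 panels the Western diet median lies above the low-fat median and the CCl4 median below the olive oil median, and in the Cyp39a1 panel the directions are turned round.

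MHC class II genes, which load and display peptides on antigen-presenting cells, had the highest median difference in favour of the diet among lists with at least 9 members tested. Of 9 members tested, 8 rose on Western diet and 1 rose and 1 fell after CCl4, and the difference was called for 5, all with the higher diet response. The median log2 response was 1.92 on diet and -0.36 after CCl4. In the CCl4 livers the mean log2 level of the list, relative to the olive oil mean, was -0.77 to 0.16. That range covered the olive oil livers of index D504 (-0.60 to 0.14) and lay below those of index D505 (0.30 to 0.41). The part of this split in the CCl4 response was not tested. A short CCAAT box on either strand is part of the control region shared by class II genes, and the windows of H2-Aa (chr17:34287774-34288073, minus strand) and H2-Eb1 (chr17:34305617-34305916, plus strand; GRCm38.p6, RefSeq starts) are shown with CCAAT or its reverse complement ATTGG in capitals.
H2-Aa: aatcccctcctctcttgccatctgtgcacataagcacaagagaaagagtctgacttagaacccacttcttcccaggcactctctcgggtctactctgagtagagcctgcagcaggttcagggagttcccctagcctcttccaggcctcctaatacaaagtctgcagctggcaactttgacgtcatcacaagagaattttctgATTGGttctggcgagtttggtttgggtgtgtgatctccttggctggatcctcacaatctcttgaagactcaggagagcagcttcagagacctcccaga
H2-Eb1: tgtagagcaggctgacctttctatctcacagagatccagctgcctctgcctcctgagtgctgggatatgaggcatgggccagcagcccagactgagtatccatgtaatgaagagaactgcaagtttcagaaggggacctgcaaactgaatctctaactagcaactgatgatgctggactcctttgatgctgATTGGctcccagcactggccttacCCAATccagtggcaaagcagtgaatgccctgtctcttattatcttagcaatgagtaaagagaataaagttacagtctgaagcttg
The motif was found in 5 of the 6 class II genes with a promoter in the table and in 37.4% of all 32851 promoters of this length. A gene was counted if any of its promoters matched, while the percentage counts single promoters, so these may not be like measures. A match is a description of these letters only.
Cd74, the invariant chain that guards the peptide groove, was at 106, 323 and 499 CPM in Western diet livers, against 47.5, 74.2 and 163 CPM in low-fat livers. It was at 21.7, 28.0, 38.1 and 39.2 CPM in the CCl4 livers, against 42.9, 78.9 and 102 CPM in olive oil livers. The CCl4 groups did not overlap, while the highest low-fat liver, number 19, lay inside the Western diet range. Cd74 rose by a log2 of 1.87 ± 0.27 on diet and fell after CCl4 (-1.20 ± 0.37), a difference of 3.07 ± 0.46 (adjusted p = 9.2e-05). The beta chain gene H2-Eb1 had 35.1, 121 and 226 CPM in Western diet livers, against 15.6, 21.6 and 58.5 CPM in low-fat livers. It had 4.62, 10.3, 11.8 and 13.6 CPM in the CCl4 livers, against 7.07, 17.6 and 22.5 CPM in olive oil livers. H2-Eb1 rose on diet by 2.14 ± 0.31, and its CCl4 response of -0.70 ± 0.47 was not called (95% interval -1.66 to 0.26), a difference of 2.84 ± 0.57 (adjusted p = 0.0014). H2-Ab1 gave 2.00 on diet and -0.62 after CCl4 (difference adjusted p = 0.0019), and the alpha chain gene H2-Aa 2.09 and -1.05 (difference adjusted p = 0.00026). The CCl4 fall of H2-Aa just missed the threshold (adjusted p = 0.053), and it was called when 1 liver was left out, namely Western diet liver 14 (0.039), 32 (0.034) or 36 (0.041), low-fat liver 19 (0.035) or olive oil liver 27 (0.031). With a weight per group 1 of 9 members kept a called difference, and the adjusted p was 0.074 for H2-Aa, 0.19 for H2-Eb1 and 0.17 for H2-Ab1. Markers of T, B and NK cells, which were summed to 7.21 to 26.5 CPM on Western diet, 4.46 to 19.9 CPM on the low-fat diet, 0.459 to 6.14 CPM after CCl4 and 5.87 to 10.4 CPM after olive oil, had 1 of 8 members called up on diet and none after CCl4, and their part in the class II result was not tested.

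Among genes that fell on Western diet and rose after CCl4, the naming rule gave 2. Cyp39a1 (chr17:43667425-43751431) encodes an oxysterol 7-alpha-hydroxylase of bile acid synthesis. It had 9.95, 15.0 and 17.8 CPM in Western diet livers, against 19.7, 29.4 and 40.0 CPM in low-fat livers. It had 34.7, 35.7, 39.5 and 73.0 CPM in the CCl4 livers, against 13.8, 21.4 and 29.8 CPM in olive oil livers. The log2 responses of -0.96 ± 0.18 on diet and 1.08 ± 0.23 after CCl4 differed by -2.04 ± 0.29 (adjusted p = 4.4e-05). The zinc finger gene Zbtb11 moved far less, at 81.1, 85.5 and 91.3 CPM on Western diet against 91.9, 103 and 121 CPM on the low-fat diet. After CCl4 it stood at 139, 152, 157 and 165 CPM, against 115, 126 and 136 CPM after olive oil, and the difference was -0.55 ± 0.11 (adjusted p = 0.0016). In separate fits its CCl4 rise was not called (adjusted p = 0.12).

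Acute phase proteins, which hepatocytes secrete in inflammation, held 3 genes of this opposite class, the fibrinogen chains Fga, Fgb and Fgg. Fgb had 2127, 2699.5 and 3058 CPM in Western diet livers, against 3285, 4488 and 5247 CPM in low-fat livers, and these groups did not overlap. The CCl4 livers had 3995, 4268, 14195 and 22694 CPM, against 4166, 5499 and 8176 CPM in olive oil livers. Only CCl4 livers 4 and 34 lay above the olive oil range. The log2 responses were -0.76 ± 0.25 on diet and 0.95 ± 0.31 after CCl4, a difference of -1.70 ± 0.40 (adjusted p = 0.0049). Without liver 34 the CCl4 response was 0.35 (adjusted p = 0.33) and without liver 4 it was 0.82 (adjusted p = 0.061), neither called. The diet fall was not called without Western diet liver 14 (-0.75, adjusted p = 0.056), 17 (-0.71, 0.064) or 34 (-0.73, 0.059) or low-fat liver 25 (-0.73, 0.051). Serpina3n, a protease inhibitor of the acute phase, rose after CCl4 alone. It had 297, 351 and 418 CPM on Western diet, against 271, 304 and 405 CPM on the low-fat diet. It had 802, 970.4, 5572 and 5929.7 CPM after CCl4, against 269.5, 418 and 1497 CPM after olive oil. Its log2 response was 0.11 ± 0.34 on diet (95% interval -0.60 to 0.82) and 2.41 ± 0.44 after CCl4, a difference of -2.30 ± 0.56 (adjusted p = 0.0066). The whole list of 20 had 1 member with a higher and 6 with a lower diet response, and medians of 0.23 on diet and 0.86 after CCl4. On diet 8 members rose and 4 fell, and after CCl4 11 rose and 2 fell. The mean log2 level of the list over its own controls was 0.39 to 1.13 on Western diet, against -0.28 to 0.15 on the low-fat diet. It was -0.28 to 2.07 after CCl4, against -0.79 to 1.70 after olive oil, so these groups overlapped. With quality weights per library the called differences turned to 3 higher and 0 lower, and those of Fgb (0.089) and Serpina3n (0.09) were not called.

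Ribosomal protein genes moved apart by small amounts. Of 24 tested, 0 rose and 3 fell on diet, 18 rose and 0 fell after CCl4, and 19 had the lower and 0 the higher diet response. Their median log2 response was -0.14 on diet and 0.38 after CCl4. Rps4x, a protein of the small subunit, had 125, 138 and 160.2 CPM on Western diet, against 136, 157 and 169 CPM on the low-fat diet. It had 229.5, 235, 245 and 247 CPM after CCl4, against 148, 164 and 168 CPM after olive oil. Every CCl4 liver, liver 34 included, was above every olive oil liver, and the responses of -0.15 ± 0.066 on diet and 0.57 ± 0.084 after CCl4 differed by -0.71 ± 0.11 (adjusted p = 9.4e-05). Rpl3, of the large subunit, had responses of -0.084 on diet and 0.69 after CCl4 (difference adjusted p = 0.00096). Processed copies of ribosomal protein genes can share reads with them, so these levels are uncertain. Without liver 34 the list still had 17 lower and 0 higher, and with a weight per group 9 lower and 0 higher.

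Of 24 chaperones and stress genes of the endoplasmic reticulum, 8 had the lower diet response and 0 the higher one. The mean log2 level of this list over its own controls was 1.36 in CCl4 liver 34. In CCl4 livers 4, 5 and 7 it was 0.42, 0.099 and -0.082, within the olive oil range of -0.25 to 0.44. Pdia6, a disulphide isomerase, had 208, 239 and 269 CPM on Western diet, against 239, 271 and 359 CPM on the low-fat diet. It had 306, 445, 447 and 500.0 CPM after CCl4, against 238, 274 and 333 CPM after olive oil. It rose after CCl4 (0.61 ± 0.13), with -0.25 ± 0.11 on diet and a difference of -0.86 ± 0.17 (adjusted p = 0.0013). The glucose-regulated chaperone Hsp90b1 had responses of -0.28 on diet and 0.71 after CCl4, a difference of -0.99 ± 0.20 (adjusted p = 0.0013). Without CCl4 liver 34, and in separate fits, both genes also passed the test for a fall on diet (without liver 34, -0.26, adjusted p = 0.029, for Pdia6 and -0.29, adjusted p = 0.042, for Hsp90b1). With the index as a covariate the difference of Pdia6 was not called (-0.42, adjusted p = 0.16). The list count fell to 3 lower and 1 higher without liver 34, and to 2 lower and 0 higher with a weight per group.

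Genes that rose on Western diet with a CCl4 response bounded within 2-fold were led, by the size of the difference, by Slc39a4 (chr15:76612383-76617384), which encodes the zinc importer ZIP4. It had 28.7, 63.3 and 77.9 CPM in Western diet livers, against 1.75, 6.15 and 12.7 CPM in low-fat livers. It had 22.4, 38.6, 59.0 and 94.4 CPM in the CCl4 livers, against 38.8, 60.6 and 90.1 CPM in olive oil livers. The naming rule required that the diet groups not overlap. The low-fat livers also lay below the CCl4 and olive oil livers, which overlapped each other and the Western diet livers. Its log2 response was 3.17 ± 0.31 on diet and -0.20 ± 0.37 after CCl4 (95% interval -0.97 to 0.56), a difference of 3.38 ± 0.50 (adjusted p = 7.8e-05). Dmpk, the kinase gene whose repeat expansion causes myotonic dystrophy, had 26.6, 48.8 and 54.6 CPM on Western diet, against 11.2, 14.8 and 22.5 CPM on the low-fat diet. Its diet response was 1.38 ± 0.17, its CCl4 response -0.39 ± 0.24 (95% interval -0.88 to 0.11) and the difference 1.77 ± 0.30 (adjusted p = 0.00031). Adcy7, an adenylate cyclase found in leukocytes, rose by 1.81 ± 0.21 on diet, with a CCl4 response of 0.14 ± 0.31 (95% interval -0.49 to 0.77; difference adjusted p = 0.0034).

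Sugar-phosphorylating enzymes that adult hepatocytes scarcely use also rose on diet alone. Hexokinase 3 (Hk3), typical of myeloid cells, had 7.06, 11.2 and 17.0 CPM on Western diet, against 1.98, 2.64 and 5.92 CPM on the low-fat diet. It had 4.36, 5.07, 5.09 and 6.72 CPM after CCl4, against 2.88, 4.69 and 7.04 CPM after olive oil. Its difference was 1.61 ± 0.39 (adjusted p = 0.0061). Hexokinase 2 (Hk2) had 4.25, 15.1 and 22.8 CPM on Western diet, against 0.992, 1.75 and 3.55 CPM on the low-fat diet, a response of 2.88 ± 0.30. After CCl4 it had 1.84, 1.94, 2.67 and 6.24 CPM, against 1.40, 1.95 and 3.04 CPM after olive oil, and this response of 0.62 ± 0.47 had a 95% interval of -0.35 to 1.59, which reaches past 2-fold. The difference was 2.27 ± 0.57 (adjusted p = 0.0079). Over the glycolysis and gluconeogenesis list, 5 of 26 genes, Hk3 and Hk2 among them, had the higher and 1 the lower diet response. This called share of 23.1% stands beside 16.4% over all genes tested, and no result about the list is drawn from it. With a weight per group the difference was called for neither Hk3 (adjusted p = 0.18) nor Hk2 (0.37) nor Adcy7 (0.31), with weights per library it was called for neither Adcy7 (0.064) nor Hk2 (0.062), and with the index as a covariate it was not called for Hk2 (0.14).

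Lipid droplet and uptake genes moved apart: 10 of 23 rose and 1 fell on diet, 4 rose and 5 fell after CCl4, and 7 had the higher and 0 the lower diet response. Plin4, a coat protein of lipid droplets, had 39.7, 82.2 and 134 CPM on Western diet, against 4.70, 11.1 and 18.7 CPM on the low-fat diet. It had 3.74, 5.12, 14.8 and 17.2 CPM after CCl4, against 4.74, 6.74 and 17.3 CPM after olive oil. The diet groups were far apart and the CCl4 groups overlapped, with responses of 2.85 ± 0.30 on diet and 0.25 ± 0.46 after CCl4 and a difference of 2.59 ± 0.55 (adjusted p = 0.0023). Vldlr, the very-low-density lipoprotein receptor, was an opposite gene, at 7.27, 10.6 and 11.6 CPM on Western diet against 1.71, 4.82 and 8.28 CPM on the low-fat diet. It was at 0, 0, 0.689 and 0.694 CPM after CCl4, against 0.558, 1.14 and 7.83 CPM after olive oil, where liver 29 alone was high. Its difference was 4.11 ± 0.91 (adjusted p = 0.0027) and 2.92 without olive oil liver 29, when the CCl4 fall was not called (-1.79, adjusted p = 0.06). Lpl, lipoprotein lipase, was 1 of only 3 genes that rose in both challenges and more on diet, the others being Uap1l1 and the bacterial lipopeptide receptor Tlr1; Lpl and Tlr1 were named after their values were seen. Their differences were 1.25 ± 0.39 for Uap1l1, 1.51 ± 0.50 for Lpl and 1.33 ± 0.47 for Tlr1 (adjusted p = 0.029, 0.037 and 0.0497), and these calls held in 23, 17 and 7 of the 26 fits that each left out 1 liver; for Uap1l1 the difference was 1.17 (adjusted p = 0.056) without CCl4 liver 5, 0.98 (0.082) without olive oil liver 26 and 1.12 (0.06) without olive oil liver 27. With a weight per group no difference was called for Uap1l1 (adjusted p = 0.39), Lpl (0.2), Tlr1 (0.32), Plin4 (adjusted p = 0.081) or Vldlr (0.22), and with the index as a covariate none for Plin4 (0.11).

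Resident macrophage genes split. Of 10 Kupffer cell markers, 3 rose and 1 fell on diet, 1 rose and 3 fell after CCl4, and 4 had the higher and 2 the lower diet response. Vsig4, a complement receptor of Kupffer cells, rose by 0.90 ± 0.20 on diet, with -0.37 ± 0.28 after CCl4 (difference 1.27 ± 0.35, adjusted p = 0.014). Cd5l, an anti-apoptotic protein that tissue macrophages secrete, had 127, 250.2 and 372 CPM on Western diet, against 48.3, 67.5 and 120.2 CPM on the low-fat diet. It had 59.9, 63.1, 114 and 178 CPM after CCl4, against 53.011, 84.4 and 171 CPM after olive oil. The diet groups did not overlap and the CCl4 groups did, with a difference of 1.54 ± 0.42 (adjusted p = 0.014). With a weight per group the adjusted p was 0.14 for Vsig4 and 0.07 for Cd5l, and with the index as a covariate 0.29 for Vsig4. Clec4f, a C-type lectin of Kupffer cells, had 108, 127 and 151 CPM on Western diet, against 53.9, 78.9 and 132 CPM on the low-fat diet. It had 27.7, 35.6, 41.9 and 94.4 CPM after CCl4, against 57.5, 89.3 and 151 CPM after olive oil. It fell after CCl4 (-0.93 ± 0.29, adjusted p = 0.013), with 0.54 ± 0.21 on diet and a difference of 1.47 ± 0.36 (adjusted p = 0.0066). The fall after CCl4 was not called without CCl4 liver 34 (-0.73, adjusted p = 0.056) or liver 4 (-0.80, adjusted p = 0.051), while the difference was called in every fit that left out 1 liver (1.27, adjusted p = 0.014, without liver 34). Marco and Cd163, scavenger receptors of macrophages, went the other way. Marco had 0.612, 1.29 and 40.7 CPM on Western diet, against 2.16, 7.69 and 29.7 CPM on the low-fat diet. It had 39.1, 45.6, 90.2 and 335 CPM after CCl4, against 1.67, 15.5 and 27.4 CPM after olive oil. It rose after CCl4 (3.13 ± 0.92), with -0.40 ± 0.74 on diet and a difference of -3.53 ± 1.18 (adjusted p = 0.039). Cd163, named after its values were seen, fell on diet (-1.90 ± 0.62), with 0.91 ± 0.75 after CCl4 and a difference of -2.81 ± 0.96 (adjusted p = 0.044). The difference was called in 13 of the 26 fits that each left out 1 liver for Marco and in 10 for Cd163; without CCl4 liver 34 it was -2.41 (adjusted p = 0.15) for Marco and -1.74 (0.21) for Cd163, and without Western diet liver 32 it was -5.79 for Marco. By contrast, none of 14 markers of recruited and lipid-associated macrophages had a called difference: 13 rose and 1 fell on diet, 10 rose after CCl4, and their summed level was 356 to 1159 CPM on Western diet against 148 to 329 CPM on the low-fat diet, and 597 to 945 CPM after CCl4 against 117 to 292 CPM after olive oil. A missed threshold does not show that these responses were equal.

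Gpx4 and Col14a1 also rose on diet alone. Gpx4, which reduces lipid hydroperoxides in membranes, had 303, 396 and 512 CPM on Western diet, against 179, 218 and 314 CPM on the low-fat diet. Its response was 0.79 ± 0.12 on diet and -0.22 ± 0.16 after CCl4 (95% interval -0.54 to 0.11), a difference of 1.00 ± 0.20 (adjusted p = 0.0016). Col14a1, a collagen that binds the surface of fibrils, had 91.8, 121 and 173 CPM on Western diet, against 38.9, 50.2 and 69.2 CPM on the low-fat diet. It had 20.4, 32.8, 55.7 and 72.9 CPM after CCl4, against 23.6, 45.7 and 70.1 CPM after olive oil. The difference was 1.21 ± 0.35 (adjusted p = 0.019), and 0.056 and 0.09 with weights per library and per group. Of 30 collagen and matrix genes 25 rose on diet and 20 rose and 2 fell after CCl4, and 18 moved the same way with no called difference. The diet response was higher for 3 and lower for 2. This called share of 16.7% is near the all-gene 16.4% and gives no result about the list.

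Genes that fell on Western diet alone included Pla1a, Sqle and Hamp. For Sqle and Hamp, whose CCl4 intervals are not given, alone means only that the CCl4 response was not called. Pla1a, a phospholipase that acts on phosphatidylserine, had 21.029, 24.4 and 26.7 CPM on Western diet, against 29.2, 44.1 and 50.6 CPM on the low-fat diet. After CCl4 it had 36.8, 46.8, 57.0 and 74.4 CPM, against 44.5, 48.2 and 61.2 CPM after olive oil, and these groups overlapped. The responses were -0.82 ± 0.12 on diet and 0.09 ± 0.15 after CCl4 (95% interval -0.23 to 0.41), a difference of -0.91 ± 0.19 (adjusted p = 0.0023). Squalene epoxidase (Sqle), a rate-setting step of cholesterol synthesis, had 3.47, 5.89 and 14.7 CPM on Western diet, against 13.5, 37.3 and 85.3 CPM on the low-fat diet. It had 28.7, 94.0, 106 and 163 CPM after CCl4, against 55.5, 114 and 159.6 CPM after olive oil. Its difference was -2.27 ± 0.59 (adjusted p = 0.01), and it was the single member of 25 sterol synthesis genes with a called difference, although 13 fell on diet and 5 fell after CCl4. Hepcidin (Hamp), the liver hormone that blocks iron export, had 48.9, 167 and 303 CPM on Western diet, against 313, 531 and 675 CPM on the low-fat diet. It had 361, 413, 1383 and 1826 CPM after CCl4, against 195, 616 and 1296 CPM after olive oil, a wide spread, and a difference of -2.18 ± 0.60 (adjusted p = 0.015). With the index as a covariate Pla1a (-0.52, adjusted p = 0.12) and Sqle (-0.54, 0.67) had no called difference, and with a weight per group Sqle (0.12) and Hamp (0.094) had none, nor had Hamp with weights per library (0.056).

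Pericentral hepatocyte genes fell after CCl4. Of 18 genes tested that mark hepatocytes around the central vein, 12 fell after CCl4, 3 fell and 1 rose on diet, and 12 had the higher diet response against 0 with the lower. The median log2 response was -0.24 on diet and -1.39 after CCl4, and the members' summed level was 7951, 11324 and 16732 CPM on Western diet, 10949, 14942 and 17998 CPM on the low-fat diet, 2689, 3786 and 4636 CPM after CCl4 and 9412, 15332 and 19404 CPM after olive oil as lowest, median and highest. Cyp2e1 (chr7:140763739-140774987), the enzyme that activates CCl4, had 3037, 4409.9 and 7951 CPM on Western diet, against 4469.7, 6501 and 8060.1 CPM on the low-fat diet. It had 424, 513, 750.2 and 837 CPM after CCl4, against 3486, 6702 and 9327 CPM after olive oil. The fall after CCl4 was 10.1-fold (log2 -3.34 ± 0.32) and the diet response was -0.34 ± 0.22 (95% interval -0.79 to 0.11), a difference of 3.00 ± 0.37 (adjusted p = 7.9e-06). Glutamine synthetase (Glul), held in the innermost ring of hepatocytes, had 911, 1130.5 and 1502 CPM on Western diet, against 1074, 1220.2 and 1297 CPM on the low-fat diet. It had 48.1, 57.4, 72.5 and 171 CPM after CCl4, against 465, 935 and 1081 CPM after olive oil. Its responses were 0.022 ± 0.21 on diet and -3.23 ± 0.30 after CCl4, a difference of 3.25 ± 0.35 (adjusted p = 1.5e-06).

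The glutamate transporter Slc1a2, found in the same ring, had 68.7, 118 and 171 CPM on Western diet, against 117, 178 and 191 CPM on the low-fat diet. It had 0, 0.401, 0.462 and 2.75 CPM after CCl4, against 88.6, 152 and 253 CPM after olive oil, so that all 4 CCl4 livers were below 3 CPM. The difference was 7.14 ± 0.55 (adjusted p = 5.8e-09), and 8.57 without CCl4 liver 4, which had the highest of the 4 levels, or 6.99 without liver 34. Cyp2a5, which hydroxylates coumarin, had 1.15, 3.70, 4.81 and 13.6 CPM after CCl4, against 164, 366 and 666 CPM after olive oil, with a diet response of 0.65 ± 0.36 (95% interval -0.09 to 1.40) and a difference of 6.68 ± 0.72 (adjusted p = 1.4e-06), or 7.48 without CCl4 liver 7 and 6.51 without liver 34. Drug-metabolising enzymes as a list had 12 of 38 with the higher and 1 with the lower diet response. Cyp3a25 had 392, 416 and 508 CPM on Western diet, against 364, 493.19 and 605 CPM on the low-fat diet. It had 155, 205, 212 and 248 CPM after CCl4, against 572, 703.11 and 817 CPM after olive oil, a difference of 1.60 ± 0.19 (adjusted p = 4.5e-06). For Cyp2c29 the responses were -0.49 ± 0.35 on diet and -4.72 ± 0.55 after CCl4 (difference adjusted p = 5.9e-05). Cyp2c38 had the largest difference among named genes that fell after CCl4 with a bounded diet response, at 65.5, 89.2 and 104 CPM on Western diet against 38.5, 72.2 and 109 CPM on the low-fat diet. It was at 0, 0, 0.459 and 0.925 CPM after CCl4, against 17.7, 23.6 and 27.4 CPM after olive oil. Its difference was 6.61 ± 0.53 (adjusted p = 6.4e-09), 7.80 without CCl4 liver 34 and 6.03 without CCl4 liver 5, and with a weight per group the adjusted p was 0.063. With so few reads left after CCl4, the fitted sizes for Cyp2c38 and Slc1a2 depend on edgeR's small prior count. The methyltransferase Inmt was at 1.39, 1.61, 38.6 and 61.1 CPM after CCl4, against 331, 431 and 528 CPM after olive oil, with -0.073 ± 0.39 on diet (95% interval -0.88 to 0.74) and a difference of 3.97 ± 0.70 (adjusted p = 0.00043), or 4.79 without CCl4 liver 7 and 3.57 (adjusted p = 0.0001) without liver 34. The Cyp2a and Cyp2c genes have near-identical neighbours, so how reads were divided among them is uncertain.

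**Figure D3:**
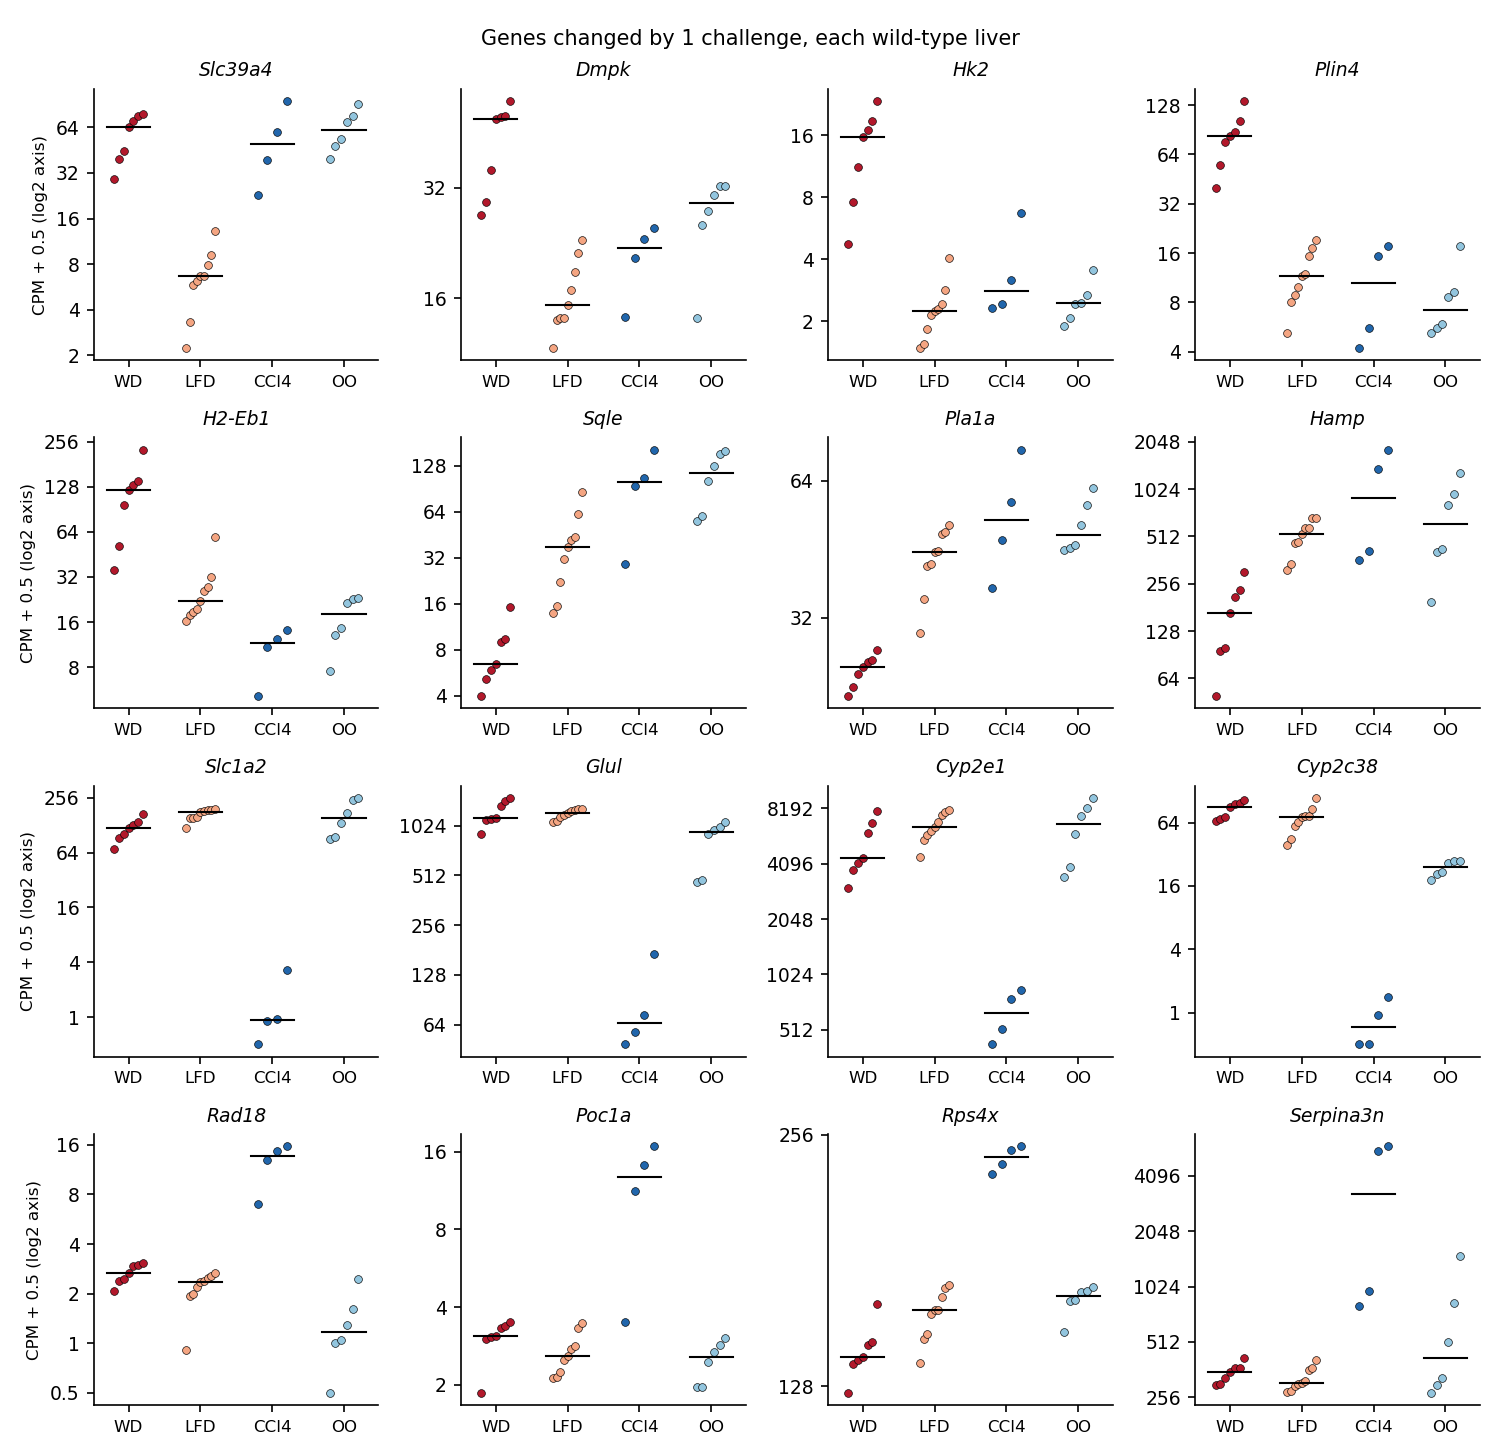
CPM plus 0.5 on a log2 axis in each liver for 16 genes, with bars at group medians. In the upper 8 panels the medians of Western diet (WD) and low-fat diet (LFD) livers differ, with overlap for H2-Eb1 and Sqle, and in the lower 8 those of CCl4 and olive oil (OO) livers, with overlap for Serpina3n and 1 CCl4 liver close to olive oil for Poc1a.

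Fatty acid synthesis genes had lower responses to CCl4 than to diet where they differed. In fatty acid synthesis 10 of 19 genes fell after CCl4, 1 rose and 1 fell on diet, and 7 had the higher and 0 the lower diet response. The list summed to 4143 to 7183 CPM in olive oil livers of index D504 and 18537 to 22979 CPM in those of D505. Its mean log2 level relative to the olive oil mean was -0.73 in olive oil liver 27, below CCl4 liver 7 (-0.53), so the groups overlapped. The part of this split in the CCl4 response was not tested. Srebf1, the insulin-driven activator of lipogenic genes, had 389.8, 608 and 667 CPM on Western diet, against 212, 463 and 668 CPM on the low-fat diet. It had 38.2, 60.6, 149 and 255 CPM after CCl4, against 327, 385 and 441 CPM after olive oil. The difference was 1.89 ± 0.43 (adjusted p = 0.004) and 2.47 without CCl4 liver 7, and without liver 34 it was 1.57 (adjusted p = 0.0044). Mlxipl, which encodes the glucose-sensing factor ChREBP, fell in both challenges, with -0.53 ± 0.15 on diet and -1.85 ± 0.20 after CCl4, and the difference was 1.32 ± 0.25 (adjusted p = 0.00076). In fatty acid oxidation 12 of 29 genes fell after CCl4, 1 rose on diet, and 5 had the higher and 0 the lower diet response, a called share of 17.2% that is near the all-gene 16.4% and gives no result about the list. Acaa1b, a peroxisomal thiolase with a close copy in Acaa1a, had 3.01, 70.2, 98.3 and 120.0 CPM after CCl4, against 373, 534 and 769.5 CPM after olive oil, the lowest value being liver 34. Its difference was 3.67 ± 0.57 (adjusted p = 0.00012), and without liver 34 it rose on diet as well as falling after CCl4 (0.76 and -2.50).

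Further metabolic and hepatocyte genes fell after CCl4. Urate oxidase (Uox) had 1723, 1987 and 2329 CPM on Western diet, against 2152, 2410.2 and 3095 CPM on the low-fat diet. It had 249.96, 658, 749.7 and 788 CPM after CCl4, against 2248, 2373 and 2524 CPM after olive oil. Its responses were -0.34 ± 0.15 on diet and -1.95 ± 0.21 after CCl4 (difference adjusted p = 0.00014); without liver 34 the diet fall also passed the test (-0.34, adjusted p = 0.0051). The hepatocyte transcription factor Cebpa had 58.3, 95.5, 126 and 187 CPM after CCl4, against 204, 304 and 371 CPM after olive oil, with -0.26 ± 0.16 on diet (95% interval -0.59 to 0.076) and a difference of 1.08 ± 0.27 (adjusted p = 0.0073). Of 29 amino acid catabolism genes 20 fell and 1 rose after CCl4, 12 fell and 2 rose on diet, and 9 had the higher and 1 the lower diet response. For nuclear genes of oxidative phosphorylation 22 of 25 fell after CCl4 and 6 on diet, with 7 higher and 0 lower diet responses, and Sdhb, a subunit of succinate dehydrogenase, had -0.15 ± 0.10 on diet and -0.97 ± 0.13 after CCl4 (difference adjusted p = 0.0011). Sinusoidal endothelial markers had 3 of 10 with the higher and 0 with the lower diet response. Relative to the olive oil mean, their mean log2 level was -0.27 to 0.12 in the CCl4 livers, between the olive oil livers of index D505 (0.44 to 0.75) and those of index D504 (-0.66 to -0.54), so the CCl4 livers lay below the one set and above the other. Kdr, the endothelial growth factor receptor, had -0.016 ± 0.19 on diet and -1.24 ± 0.27 after CCl4 (difference adjusted p = 0.011), and with weights per library or per group its difference was not called (adjusted p = 0.07 and 0.23). The collagen gene Col5a3 fell after CCl4, unlike most of its list, at 0.925, 18.4, 23.7 and 25.4 CPM after CCl4 and 88.1, 122 and 142 CPM after olive oil, with -0.40 ± 0.25 on diet and a difference of 2.39 ± 0.42 (adjusted p = 0.00046); without liver 34, its lowest value, the diet fall also passed (-0.40, adjusted p = 0.018) and the difference was 2.01. The 7 genes listed as adipocyte markers, of which only Car3, Cfd and Lipe passed the filter, summed to 16.0 to 526.03 CPM after CCl4. After olive oil they summed to 1225 to 3794 CPM. Of the 7, 5 had no read in any CCl4 liver and 3 had none in any olive oil liver. The sum thus rests on few members and is not read as adipocyte content, and the part of these genes in the result was not tested.

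Genes that rose after CCl4 alone included Rad18 (chr6:112619850-112696686), a ubiquitin ligase that lets cells replicate past damaged bases. It had 1.59, 2.17 and 2.55 CPM on Western diet, against 0.407, 1.84 and 2.17 CPM on the low-fat diet. It had 6.54, 12.4, 14.1 and 15.2 CPM after CCl4, against 0, 0.666 and 1.94 CPM after olive oil. CCl4 liver 34, at 14.1 CPM, was within the range of the other 3. Its responses were 0.36 ± 0.28 on diet (95% interval -0.22 to 0.94) and 3.88 ± 0.42 after CCl4, a difference of -3.52 ± 0.51 (adjusted p = 6.3e-05). Thrombomodulin (Thbd), an anticoagulant receptor of endothelium, had 4.59, 4.81, 16.1 and 32.4 CPM after CCl4, against 0.558, 1.43 and 3.67 CPM after olive oil, with -0.047 ± 0.32 on diet and a difference of -2.98 ± 0.56 (adjusted p = 0.00081), or -2.21 without liver 34. Smooth muscle actin (Acta2), a marker of myofibroblasts, had 3.03, 5.44 and 8.35 CPM on Western diet, against 1.32, 5.82 and 17.0 CPM on the low-fat diet. It had 6.20, 13.6, 21.6 and 22.2 CPM after CCl4, against 1.22, 2.75 and 5.82 CPM after olive oil. Its difference was -2.64 ± 0.64 (adjusted p = 0.0061), although 10 of the 12 stellate cell and myofibroblast markers rose on diet and 5 after CCl4. The membrane protease Mmp14 rose by 1.496 ± 0.25 after CCl4, with 0.27 ± 0.19 on diet (95% interval -0.13 to 0.66; difference adjusted p = 0.0096). Txnrd1, the cytosolic thioredoxin reductase and an NRF2 target, had 161, 239.6, 338 and 471 CPM after CCl4, against 138, 145 and 159.7 CPM after olive oil, and a difference of -1.06 ± 0.21 (adjusted p = 0.0016). With the index as a covariate the difference was not called for Acta2 (-2.33, adjusted p = 0.073) or Txnrd1 (-0.69, 0.094), and with a weight per group it was not called for Acta2 (0.14), Mmp14 (0.05) or Serpina3n (0.0504).

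Cell division genes rose in both challenges and further after CCl4, in 3 of its 4 livers. Of 24 mitosis genes, 22 rose on diet and 24 after CCl4, with median log2 responses of 2.09 on diet and 5.61 after CCl4, and 17 had the lower diet response against 0 with the higher. Of 26 DNA replication genes, 11 rose on diet and 23 rose and 1 fell after CCl4, and 15 had the lower and 1 the higher diet response. Mean log2 levels of the mitosis list over their own controls were 0.48, 1.43 and 1.99 as lowest, median and highest on Western diet, 3.84, 5.53 and 4.97 in CCl4 livers 4, 5 and 7 and 0.41 in CCl4 liver 34. Late cell cycle promoters often carry a cell cycle homology region with the core TTTGAA, and the windows of Aurka (chr2:172370521-172370820, minus strand) and Ccnb2 (chr9:70421505-70421804, minus strand; GRCm38.p6, RefSeq starts) are shown with TTTGAA or its reverse complement TTCAAA in capitals.
Aurka: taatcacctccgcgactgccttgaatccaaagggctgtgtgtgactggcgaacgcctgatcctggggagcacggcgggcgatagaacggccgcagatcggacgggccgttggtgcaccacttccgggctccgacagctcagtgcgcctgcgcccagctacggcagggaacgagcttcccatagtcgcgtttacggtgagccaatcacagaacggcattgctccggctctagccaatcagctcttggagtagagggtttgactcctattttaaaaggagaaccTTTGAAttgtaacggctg
Ccnb2: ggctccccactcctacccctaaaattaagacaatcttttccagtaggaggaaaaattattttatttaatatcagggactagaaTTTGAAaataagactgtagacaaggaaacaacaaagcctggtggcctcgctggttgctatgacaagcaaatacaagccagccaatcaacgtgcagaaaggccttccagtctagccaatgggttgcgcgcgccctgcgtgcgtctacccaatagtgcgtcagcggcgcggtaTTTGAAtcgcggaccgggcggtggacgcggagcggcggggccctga
The core was found in 15 of the 20 mitosis genes with a promoter in the table and in 17.9% of all 32851 promoters, and CCAAT on either strand in 17 of the 20 and in 37.4%. Here too genes were counted by any matching promoter and the percentages by single promoters. These matches are a description and were not tied to binding.
Cyclin B2 (Ccnb2), which starts mitosis with CDK1, had 1.29, 2.98 and 6.07 CPM on Western diet, against 0.364, 0.722 and 1.17 CPM on the low-fat diet. It had 1.39, 9.18, 61.0 and 84.1 CPM after CCl4, against 0, 0.425 and 1.31 CPM after olive oil. CCl4 liver 34 held the lowest CCl4 value. Its responses were 2.01 ± 0.54 on diet and 6.32 ± 0.79 after CCl4, a difference of -4.31 ± 1.03 (adjusted p = 0.0057), or -3.60 without CCl4 liver 5. The mitotic kinase Aurka had 0.835, 2.58 and 3.76 CPM on Western diet, against 0.409, 0.712 and 1.45 CPM on the low-fat diet. It had 2.31, 17.7, 39.9 and 51.4 CPM after CCl4, against 0, 0.266 and 2.36 CPM after olive oil, with overlap in both experiments. It had a difference of -4.09 ± 0.88 (adjusted p = 0.0023), and -5.32 without olive oil liver 27; its diet rise was not called without Western diet liver 5 (adjusted p = 0.051) or 34 (0.051). DNA topoisomerase Top2a had 2.13, 8.00 and 10.972 CPM on Western diet, against 0.915, 1.59 and 2.53 CPM on the low-fat diet. It had 3.93, 67.0, 75.3 and 109 CPM after CCl4, against 0.243, 0.89 and 3.04 CPM after olive oil, a difference of -3.57 ± 0.79 (adjusted p = 0.0032). The division marker Mki67 had 2.55 on diet and 5.59 after CCl4 (difference adjusted p = 0.0041).

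Of the replication genes, the helicase subunit Mcm7 and the ribonucleotide reductase subunit Rrm2 rose after CCl4 alone. Mcm7 had 18.0, 19.5 and 24.8 CPM on Western diet, against 15.4, 17.5 and 23.1 CPM on the low-fat diet. It had 19.2, 55.1, 79.0 and 81.2 CPM after CCl4, against 13.3, 16.8 and 17.5 CPM after olive oil, and a difference of -1.67 ± 0.28 (adjusted p = 0.00028). Rrm2 had 4.48, 7.08 and 9.16 CPM on Western diet, against 4.25, 5.59 and 6.59 CPM on the low-fat diet. It had 1.62, 75.3, 105 and 116 CPM after CCl4, against 2.78, 4.75 and 9.21 CPM after olive oil, and a difference of -3.57 ± 0.62 (adjusted p = 0.00036), while liver 34 lay below every olive oil liver. The centriole gene Poc1a, at 3.01, 10.8, 13.8 and 16.3 CPM after CCl4 against 1.46, 2.07 and 2.53 CPM after olive oil, had a difference of -2.24 ± 0.40 (adjusted p = 0.00056). Without CCl4 liver 34, 23 of 24 mitosis and 20 of 26 replication genes had the lower diet response. CCl4 livers 4, 5 and 7 all carried index D503, which no olive oil liver had, so a fit with the index as a covariate set liver 34 alone against the 3 olive oil livers of index D505. In that fit no mitosis gene had the lower and 1 the higher diet response, Poc1a had no called difference (-0.32, adjusted p = 0.69), nor had Ccnb2 (0.82) or Aurka (0.34), and Top2a, Mki67, Mcm7 and Rrm2 changed sign. Index and liver 34 cannot be told apart here. With a weight per group 1 of 24 mitosis genes kept the call, and the adjusted p was 0.12 for Ccnb2, 0.14 for Top2a, 0.14 for Mki67 and 0.058 for Rrm2.

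**Figure D4:**
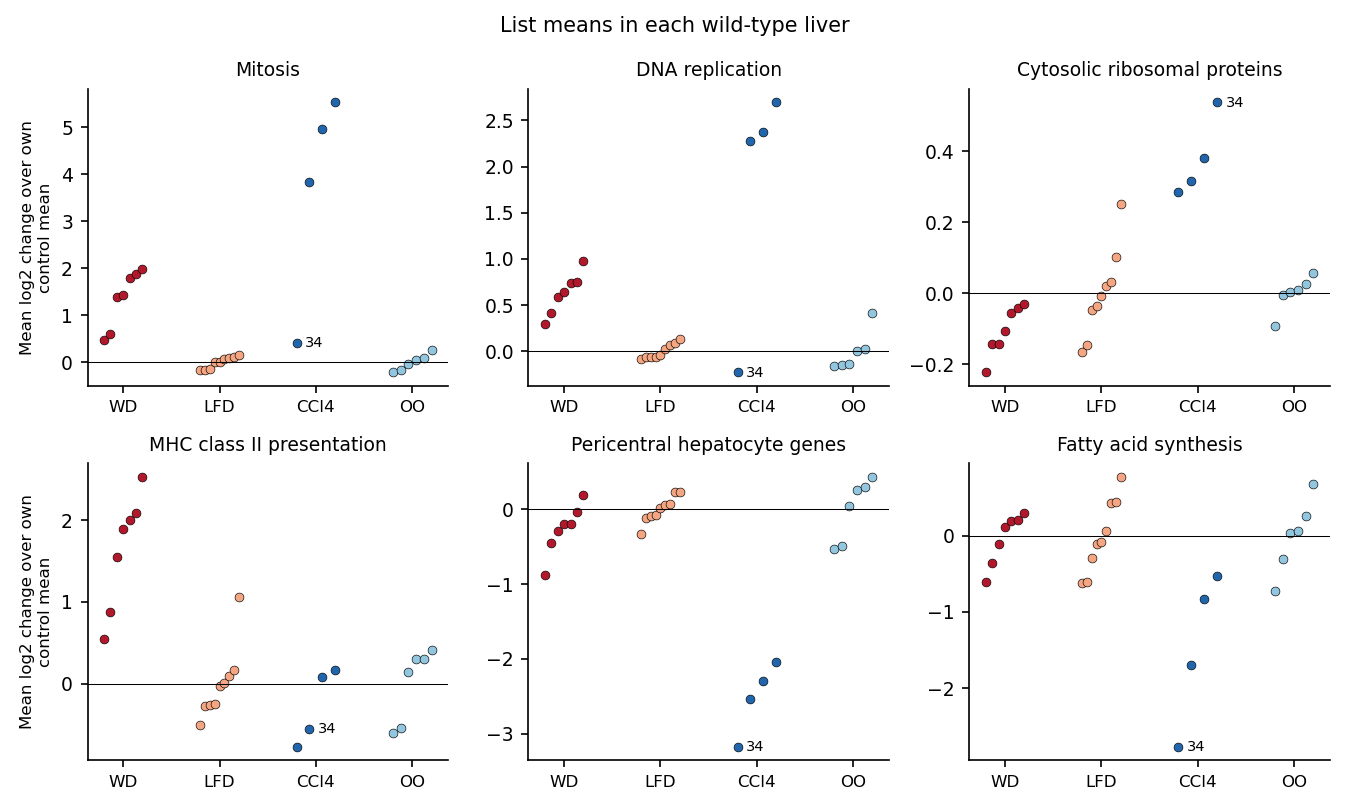
Mean log2 level of the tested members of 6 lists in each liver, relative to the mean of its own control group (low-fat diet, LFD, or olive oil, OO). CCl4 livers lie above Western diet (WD) livers for mitosis except liver 34, Western diet livers lie above CCl4 livers for MHC class II, and all 4 CCl4 livers lie below all others for pericentral genes.

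Across 45 lists the counts beside the all-gene share of 16.4% ran from 0% to 79.2% of members, the highest being ribosomal proteins, mitosis (70.8%), pericentral genes (66.7%) and DNA replication (61.5%). Lists near or below the all-gene share, which give no result about their members, were inflammatory cytokines and chemokines (1 higher and 1 lower of 22), complement and coagulation (3 and 1 of 31), interferon-stimulated genes (2 and 1 of 20), lysosomal genes (1 and 1 of 24), matrix proteases and inhibitors (0 and 2 of 20), the circadian clock (1 and 1 of 18), BMP-SMAD targets and iron genes (1 and 2 of 20), female-biased genes (0 and 1 of 14), heat shock proteins (0 and 0 of 15) and cholangiocyte markers (0 and 0 of 9). NRF2 and glutathione genes split evenly, with 3 higher and 3 lower of 24, as did the IGF axis (2 and 2 of 17) and metallothioneins with zinc transporters (1 and 1 of 9). Periportal genes had 4 higher and 1 lower of 18, hepatocyte identity genes 2 and 3 of 23, p53 targets 1 and 3 of 20, mitochondrially encoded genes 4 and 0 of 12 and red cell precursor markers 1 and 0 of 5. Genes with male-biased liver expression fell in both challenges, 15 of 20 on diet and 16 after CCl4, with 5 higher and 1 lower diet responses. Neutrophil markers, at 6.36 to 19.9 CPM summed on Western diet, 4.36 to 8.90 CPM on the low-fat diet, 7.61 to 213 CPM after CCl4 and 1.67 to 27.9 CPM after olive oil, had no called difference among 5 tested. Skeletal muscle markers summed to at most 1.71 CPM and pancreatic acinar markers to at most 42.1 CPM in any liver, with 1 member of each tested. Hepatocyte markers summed to 56736 to 83464 CPM on Western diet, 85098 to 117710 CPM on the low-fat diet, 56880 to 140590 CPM after CCl4 and 100920 to 133240 CPM after olive oil, and none of the 6 was at 0 in any group, as the liver label asks.

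**Figure D5:**
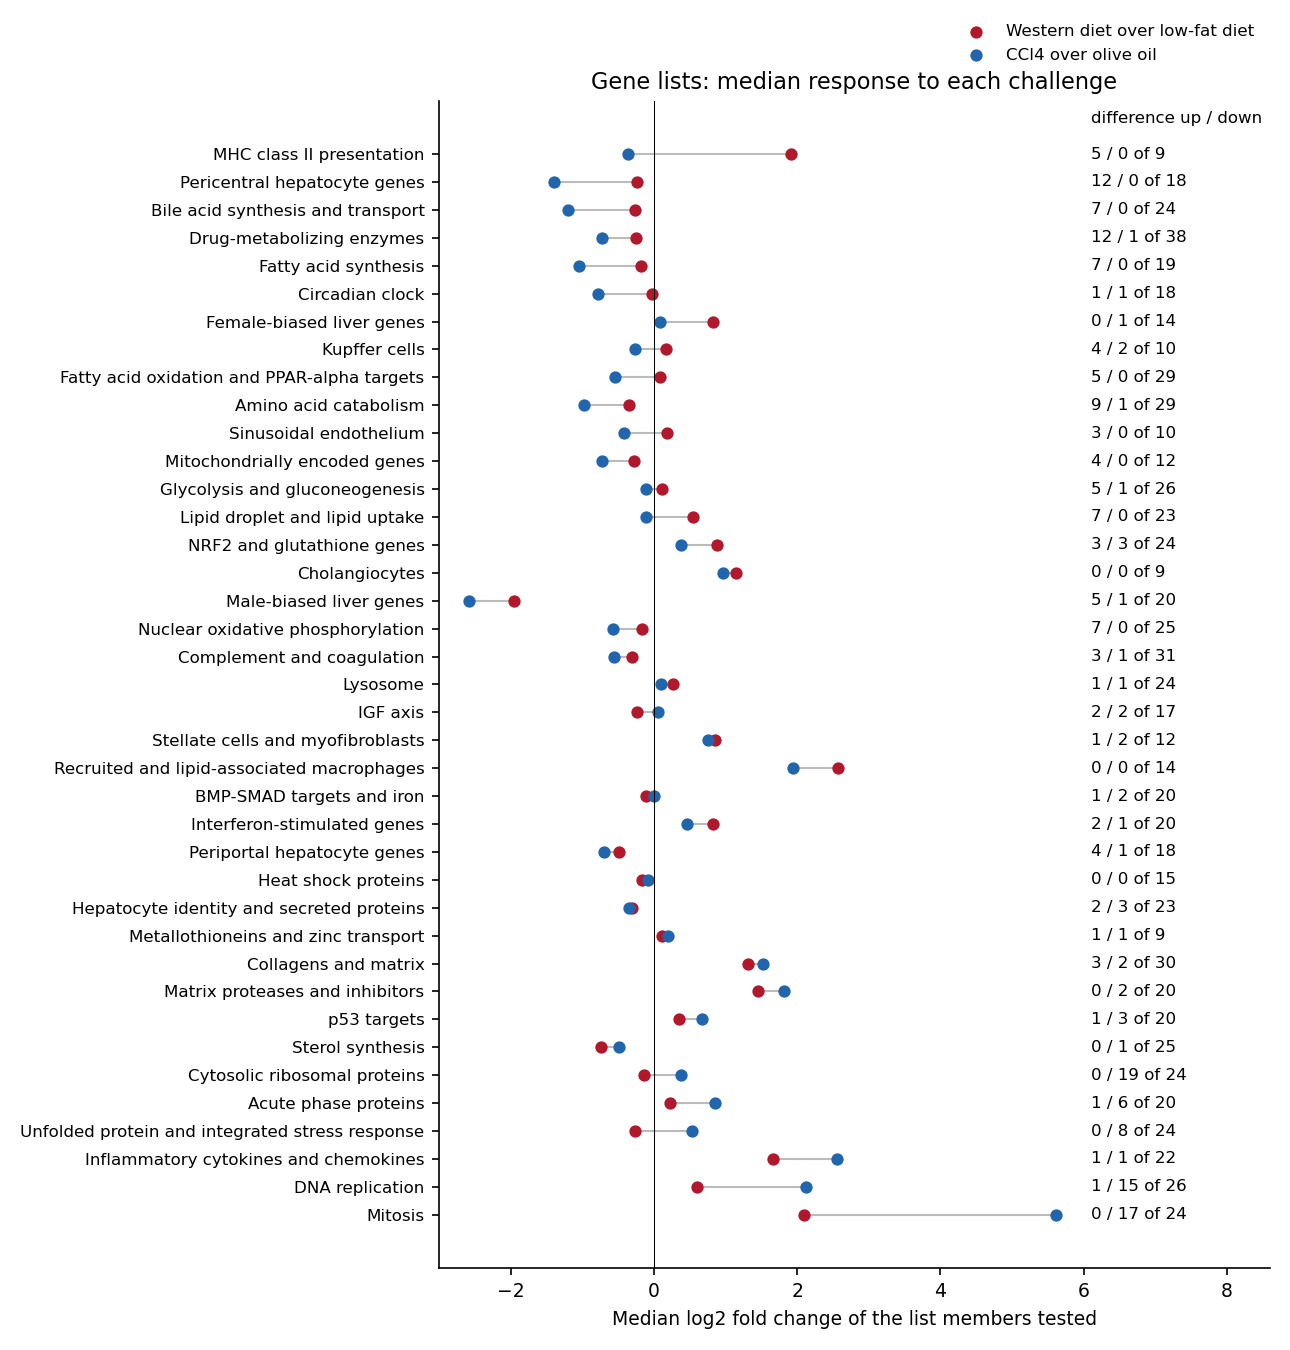
Median log2 fold change of each list with at least 9 members tested, on Western diet over the low-fat diet (red) and after CCl4 over olive oil (blue), ordered by the median difference. The columns at the right give the members with a called difference, higher and lower on diet, of those tested, from MHC class II (5 higher, 0 lower of 9) at the top to mitosis (0 higher, 17 lower of 24) at the bottom.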

How the data were processed

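RNA of whole liver was sequenced from mRNA libraries. The submitters' processing notes name GRCm38, TopHat2 2.0.11 and HTSeq; settings, annotation and use of strand are not given in the sources used here. The deposited tables hold raw counts per gene, not normalized by the authors. The 2 tables share 38293 gene IDs, and 13253 passed edgeR's filter on low counts over the 4 groups. Counts of the 26 wild-type livers were fitted with edgeR 4.0.16 (R 4.3.3; TMM, quasi-likelihood, 1 mean per group), and CPM use the TMM-scaled totals; plots add 0.5 CPM. The test was also run on simulated counts with changes placed in Western diet livers only. These counts had the same spread per gene in all 4 groups, so that run cannot speak to unequal spread between experiments. DESeq2 1.42.0 and limma 3.58.1 served as alternatives. Names and positions come from GENCODE vM21, promoters from RefSeq (GRCm38.p6). Nothing in the labels states that numbered libraries are separate litters or cages, so p-values measure the spread between these livers. No 2 livers of a group agreed within counting error (the lowest chi-square per degree of freedom was 5.43). Members, lists, tests and naming rule were chosen with earlier results of these data known. Named genes are the largest called differences that averaged 1 CPM or more in some group of each experiment and had no overlap of groups in the challenge that changed them (up to 10 per direction for opposite genes, 5 for single-challenge genes, 3 for unequal ones), plus up to 4 members of each described list by smallest p, and Bmp8b. Of the genes this rule gives, 71 were described or added; the choice was made after their values were seen and favoured genes that stayed called when single livers were left out, and Cd163, Lpl and Tlr1 are the additions outside the rule. A further result is not reported here.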

Additional observations from a re-analysis of the deposited data

Results flagged for a closer look

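For 68 of the named genes, each group of livers was examined for a liver that stood away from the rest of its group, and 25 of 272 groups held one by Dixon's test on log2 (CPM plus 0.5), where chance gives about 1 in 20 (5%). CCl4 liver 34 accounted for 7 of the 8 found in that group. It was low for Acaa1b (3.01 CPM, against 70.2 to 120.0 CPM in the other 3), Agxt2 (32.1, against 104 to 110), Col5a3 (0.925, against 18.4 to 25.4), Pyroxd2 (6.71, against 20.4 to 23.9), Rrm2 (1.62, against 75.3 to 116), Top2a (3.93, against 67.0 to 109) and Uox (249.96, against 658 to 788). CCl4 liver 4 was high for Abcg5 (62.2 CPM, against 42.2 to 43.8 CPM).

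Olive oil liver 27 was high for Aurka (2.36 CPM, against 0 to 0.364 CPM) and low for Mcm7 (13.3, against 15.9 to 17.5), Rpl3 (85.8, against 114 to 126) and Rps4x (148, against 162 to 168). Olive oil liver 28 was low for Abcg5 (64.3, against 124 to 164) and Abcg8 (79.7, against 139.8 to 171), liver 24 low for Dmpk (13.7, against 24.9 to 31.9) and liver 29 high for Vldlr (7.83, against 0.558 to 1.52). Low-fat liver 19 was high for Cd74 (163 CPM, against 47.5 to 82.6 CPM) and H2-Aa (79.5, against 22.4 to 42.0). Low-fat liver 18 was low for Rad18 (0.407, against 1.44 to 2.17) and liver 26 low for Slc1a2 (117, against 151 to 191). Western diet livers 17, 23, 5, 34 and 32 stood apart for 1 gene each. The first 4 were Hsp90b1 low (537 CPM, against 629.5 to 675 CPM), Poc1a low (1.36, against 2.51 to 2.99), Pparg high (39.6, against 26.5 to 31.4) and Vldlr low (7.27, against 9.57 to 11.6). Western diet liver 32 was high for Marco (40.7 CPM, against 0.612 to 3.32 CPM).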

How the results depend on the processing

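The classes were recomputed under 41 alternatives, 26 of which left out 1 liver. Of the 71 genes described, 66 kept the called difference and 56 their class in every fit that left out 1 liver, and 19 lost no call in any alternative; these genes were picked in part for that, and it does not describe the whole. Of all 155 called genes that the naming rule gives, 116 (74.8%) kept the call and 80 (51.6%) the class in every such fit, and of all 2167 called genes 1286 (59.3%) and 941 (43.4%). Those fits gave 1878 to 2457 called differences, 2276 to 4102 diet and 4432 to 4940 CCl4 responses, 49 to 75 genes up on diet and down after CCl4, 28 to 77 down on diet and up after CCl4, 168 to 365 diet-only, 1276 to 1702 CCl4-only, 165 to 365 unequal and 1018 to 1339 shared genes; the upper end of both opposite counts, of diet responses, diet-only and unequal genes came without CCl4 liver 34. The fewest genes down on diet and up after CCl4 came without Western diet liver 34 (28) or 17 (30). Without CCl4 liver 34 the difference was -1.72 for Hamp, 0.85 for Cebpa, -0.94 for Mmp14, -0.83 for Hsp90b1 and 2.70 for Gpr12. Each was the weakest for its gene in the fits that left out 1 liver, and each stayed called. For other genes, such as Glul (3.80) and Hk2 (2.76), the difference was largest without that liver. In counts of differences, diet responses, opposite up, opposite down, diet-only, CCl4-only, unequal and shared genes, diet livers of index D501 alone gave 249, 1131, 17, 5, 44, 171, 10 and 627, and those of D502 alone 991, 310, 7, 2, 33, 913, 4 and 172, with fewer livers in each. A required 1.5-fold change left 345 differences, 37 opposite up, 7 opposite down, 25 diet-only, 227 CCl4-only and 49 unequal genes. The index as a covariate gave 4341, 216 and 162 of the first 3, with 2602 CCl4-only, 880 unequal and 800 shared, and 2589 of its differences were higher on diet and 1752 lower; it reversed the differences of Mcm7 (0.022), Rrm2 (1.42), Top2a (1.03) and Mki67 (0.30). Separate fits gave 4975 diet and 2293 CCl4 responses, 35 opposite up, 417 diet-only, 790 CCl4-only and 339 unequal genes. Quality weights gave 5621 diet responses, 98 opposite down and 394 unequal genes. A weight per group, and member counts of lists per setting, were added after seeing the data; that weight gave 628 differences, 4944 diet and 1900 CCl4 responses, 30 opposite up, 25 opposite down, 82 diet-only, 374 CCl4-only and 110 unequal genes. Opposite down genes numbered 30 with diet counts thinned to the CCl4 depth, 22 with no filter and 30 without Western diet livers 32 and 36, and unequal genes 329 with DESeq2 and 140 with the livers labelled knockout in the fit. The cause of these shifts was not tested. Among the 71 genes the difference was not called for 32 with D501 livers alone, 28 with a weight per group, 27 with the 1.5-fold threshold, 16 with the index, 12 with D502 livers alone and 11 with quality weights. The CCl4 libraries, at 3699391 to 6364414 counts, limit what can be called among low genes. No paired analysis was possible because no mouse number occurs in both groups of a contrast, and equal numbers in the 2 experiments name different mice.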
